A study of Mus musculus with 9 samples.

Results

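The CC chemokine genes described here in eosinophils of mouse skeletal muscle number 10: Ccl2, Ccl3, Ccl4, Ccl6, Ccl7, Ccl8, Ccl9, Ccl17, Ccl22 and Ccl24. They were taken by gene symbol, and all 10 were found among the 54146 genes of the count table. Eosinophils, granulocytes of allergic and tissue inflammation, were sorted as live CD45+ Siglec-F+ cells that lacked CD11c, Gr1 and MHC class II from infiltrates of adult quadriceps, and their total RNA was sequenced. The 9 libraries formed 3 groups of 3 biological replicates. The mdx_IL5Tg group combined the dystrophin mutation mdx with an interleukin-5 (IL-5) transgene, the mdx group carried the mutation without the transgene, and the IL5Tg group carried the transgene. The mdx strain lacks dystrophin and models Duchenne muscular dystrophy, and IL-5 is the growth factor that drives eosinophil production. The strain label read mdx for all 9 samples, the IL5Tg group included, so groups were taken from the titles. The sources used here do not give the promoter of the transgene, and they give the age as adult. No group without both alterations was analysed, so mdx against IL5Tg differed in the mutation and the transgene together, whereas mdx_IL5Tg against mdx differed by the transgene and mdx_IL5Tg against IL5Tg by the mutation, as far as the titles say. Libraries are named below by group and the S number of their column.

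Chemokines are small secreted proteins that steer leukocyte migration through G-protein-coupled receptors, and the CC family is named for a pair of adjacent cysteines. In injured muscle, ligands of Ccr2 draw in monocytes, which become the macrophages that clear debris and support repair, while eosinophils themselves respond mainly through Ccr3 and Ccr1. The genes described here were the Ccr1 ligands Ccl3, Ccl6 and Ccl9 with their relative Ccl4, attractants of monocytes and other leukocytes (Ccl2, Ccl7 and Ccl8), the Ccr4 ligands Ccl17 and Ccl22, and the Ccr3 ligand Ccl24.

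Most of these genes lie in clusters (GRCm38, GENCODE release M21). On chromosome 11, Ccl2 (82035571 to 82037453), Ccl7 (82045712 to 82047525) and Ccl8 (82115185 to 82116799) lay on the plus strand within 81.2 kb, together with Ccl11 and Ccl12. A separate group on the same chromosome spanned 91.8 kb and held Ccl9 (83572919 to 83578636), Ccl6 (83587882 to 83593087) and Ccl3 (83647844 to 83649355) on the minus strand and Ccl4 (83662584 to 83664683) on the plus strand. Ccl9 and Ccl6 were 9.2 kb apart. Ccl22 (94745590 to 94751699) and Ccl17 (94810453 to 94812036) were neighbours on the plus strand of chromosome 8, with Cx3cl1 between them, and Ccl24 (135569937 to 135573049) lay on the minus strand of chromosome 5. No exon of the 10 genes overlapped an exon of another gene.

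Promoter sequences from RefSeq (GRCm38.p6) were matched for 6 of the 10 genes, Ccl3, Ccl6, Ccl8, Ccl9, Ccl17 and Ccl22. The 250 bases before the start are shown for the neighbours Ccl6 and Ccl9, whose ratio is compared below, and for Ccl17, whose reads were fewest in the mdx libraries. Each is written 5′ to 3′ on the strand of its gene, with matches to the searched motifs in capitals. They cover chr11:83593088-83593337 (minus strand, Ccl6), chr11:83578637-83578886 (minus strand, Ccl9) and chr8:94810203-94810452 (plus strand, Ccl17).
Ccl6: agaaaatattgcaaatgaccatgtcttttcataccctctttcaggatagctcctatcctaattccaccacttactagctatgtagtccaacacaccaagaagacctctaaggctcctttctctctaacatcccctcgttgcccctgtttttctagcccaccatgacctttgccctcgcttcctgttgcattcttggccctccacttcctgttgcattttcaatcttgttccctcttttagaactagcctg
Ccl9: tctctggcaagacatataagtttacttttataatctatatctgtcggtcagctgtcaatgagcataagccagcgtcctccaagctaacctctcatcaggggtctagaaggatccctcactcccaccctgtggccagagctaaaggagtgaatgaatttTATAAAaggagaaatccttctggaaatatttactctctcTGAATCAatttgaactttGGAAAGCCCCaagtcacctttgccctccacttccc
Ccl17: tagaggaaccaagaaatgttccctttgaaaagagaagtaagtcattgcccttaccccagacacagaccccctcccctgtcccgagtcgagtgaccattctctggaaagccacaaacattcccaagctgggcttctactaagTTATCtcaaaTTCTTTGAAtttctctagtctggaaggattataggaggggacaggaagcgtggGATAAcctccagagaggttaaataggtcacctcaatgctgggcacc
The STAT motif was searched as TTCNNNGAA. The AP-1 motif was searched as TGANTCA. The HIF motif was searched as ACGTG. For factors of the GATA family the letters were GATAA. These and the NF-kB motif were searched on both strands, and the TATA box TATAAA on the strand of the gene. No match in these stretches overlapped another. The Ccl9 stretch held TATAAA at 92 to 87 bases before the start, TGAATCA (AP-1) at 53 to 47 and the NF-kB match GGAAAGCCCC at 35 to 26. In the Ccl17 stretch, the STAT match TTCTTTGAA lay 99 to 91 bases before the start and GATA matches lay at 109 to 105 and 46 to 42. No searched motif was found in the Ccl6, Ccl3 or Ccl22 stretches, and Ccl8 held TATAAA at 32 to 27. Among 32851 promoters of the same length, 7.0% held the STAT motif, 6.7% AP-1, 22.6% GATA, 16.6% HIF, 7.6% TATAAA and 3.9% NF-kB. These matches describe letters and are no evidence of binding.

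Total counts ranged from 26752780 to 58368283 per library. The transgene was checked by Il5, at 695 ± 30.3 CPM (read counts scaled to a common library size) in mdx_IL5Tg, 0.334 ± 0.0682 in mdx and 434 ± 105 in IL5Tg (SD, n = 3 each). Siglecf, the gene of the sorting antigen, was at 529, 449 and 584 CPM in mdx_IL5Tg, 164, 129 and 177 in mdx and 329.9, 336 and 394 in IL5Tg. The eosinophil receptor gene Il5ra stood at 58.1 ± 9.65, 61.1 ± 10.7 and 60.2 ± 5.43 CPM in the same 3 groups. Library mdx S5 stood apart: mitochondrial genes took 0.383% of its counts against 1.28% to 2.29% in the other 8, and its differences from the other mdx libraries were larger (chi-square per degree of freedom 222 and 229) than those between mdx S4 and S6 (37). For the 10 genes, values without mdx S5 are given below where its removal ended or gained a call or changed a direction. They are also given for most other calls.

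Abundance differed widely among the 10 genes, and Ccl6 led in every group. Per kilobase of exon, Ccl6 averaged 4026 ± 309.5 CPM per kb in mdx_IL5Tg, 826 ± 295 in mdx and 2667 ± 193 in IL5Tg (SD, n = 3 each, as for all means below). Ccl9 came next at 467 ± 48.8, 443 ± 72.6 and 325 ± 40.4 CPM per kb, then Ccl3 at 138 ± 15.5, 89.2 ± 31.9 and 66.3 ± 13.1, and Ccl4 at 34 ± 4.5, 26.6 ± 1.55 and 20.0 ± 6.42, with the groups in the same order. The intervals of mean ± SD of these 4 neighbours did not overlap within a group.

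Below Ccl4, the order changed with the group. In mdx_IL5Tg, the per-kilobase levels ran from Ccl2 (5.41 ± 2.25 CPM per kb) through Ccl7 (4.08 ± 1.5), Ccl8 (1.85 ± 1.47), Ccl17 (0.538 ± 0.0888) and Ccl24 (0.335 ± 0.348) to Ccl22 (0.0962 ± 0.104), and each overlapped its neighbour within 1 SD. In mdx, Ccl7 (12.8 ± 4.13) and Ccl2 (11.4 ± 5.36) overlapped and lay above Ccl8 (3.27 ± 0.675), Ccl24 (0.582 ± 0.141), Ccl22 (0.190 ± 0.113) and Ccl17 (0.0292 ± 0.0255), which were apart from each other. In IL5Tg, Ccl2 (2.74 ± 0.242) and Ccl7 (2.03 ± 0.844) again overlapped, and Ccl17 (0.427 ± 0.233) came before Ccl8 (0.193 ± 0.165), Ccl24 (0.106 ± 0.183) and Ccl22 (0.00918 ± 0.0159). Ccl17 was thus the lowest of the 10 in mdx and the seventh in IL5Tg.

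**Figure D1:**
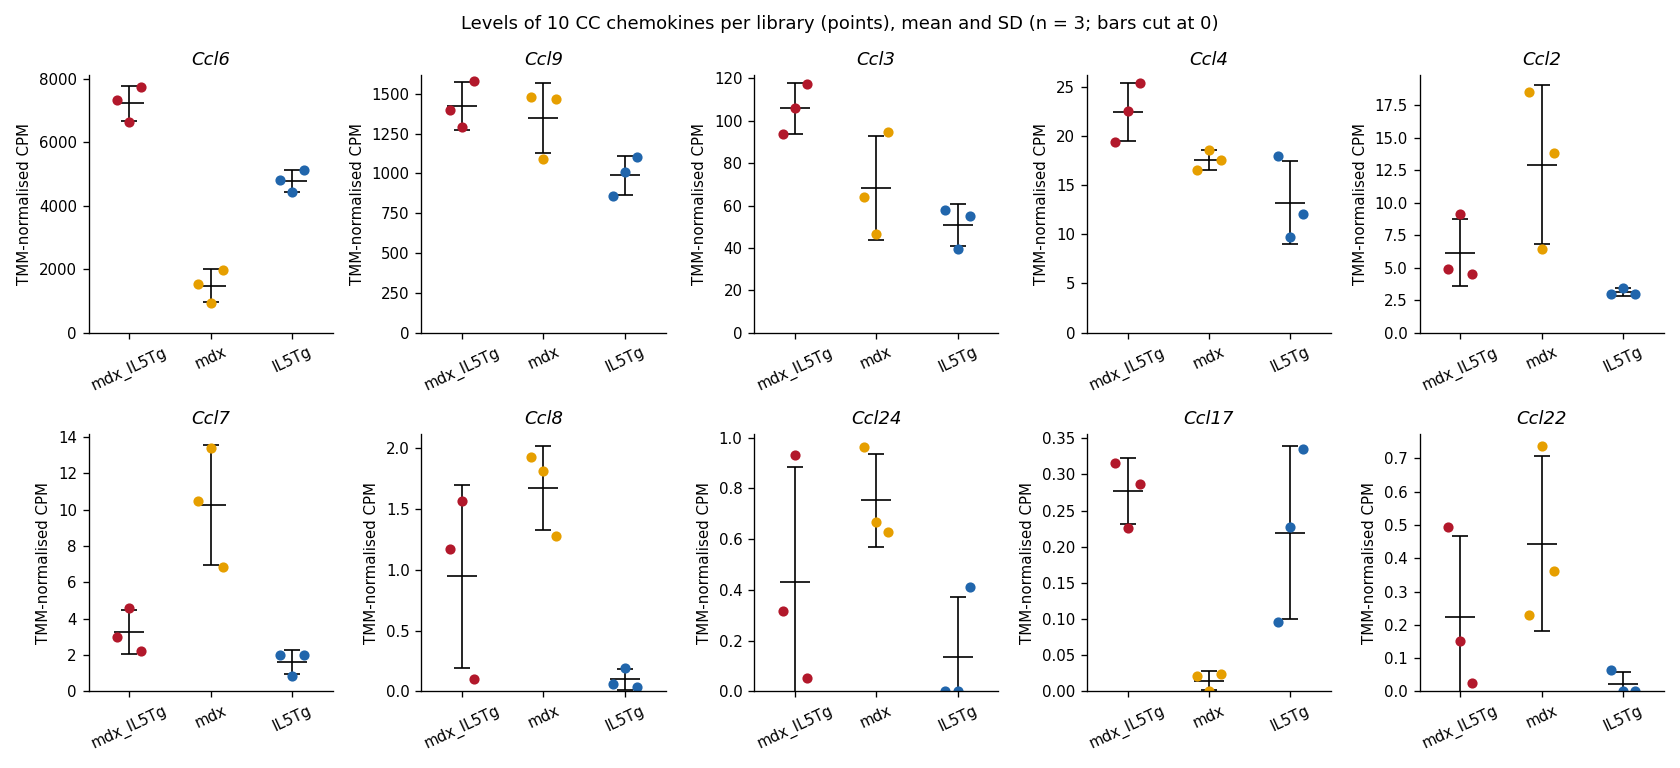
CPM of each of the 10 CC chemokine genes by library in mdx_IL5Tg, mdx and IL5Tg, with points for libraries and bars for the mean ± SD over 3 libraries. Ccl6 is lowest in the 3 mdx libraries, at 934 to 1989 CPM, while Ccl7 is highest there, at 6.82 to 13.4 CPM.

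Across the members, 9 of 10 passed the filter on low counts (minimum count 10) and were tested; Ccl17 did not pass. A gene was called at an adjusted p under 0.05 (edgeR quasi-likelihood test with all 9 libraries in 1 fit, Benjamini-Hochberg over 15886 genes). In mdx_IL5Tg against mdx, Ccl6 was higher and Ccl7 lower, 2 of 9 or 22.2%, against 21.6% of all genes tested, which is close to the background. In mdx_IL5Tg against IL5Tg, Ccl3 was the only member called, 11.1% against 7.22% of all genes. In mdx against IL5Tg, Ccl2, Ccl7, Ccl8 and Ccl22 were higher and Ccl6 was lower, 55.6% against 20.8% of all genes. Since Ccl8 and Ccl22 passed the filter through mdx_IL5Tg and mdx libraries alone, the count does not stand as support for a difference of the list. By overlap of the libraries, 2 of the 9 were higher and 1 was lower in every mdx_IL5Tg library than in every mdx library, beside 18.8% and 23.2% of all genes (42.0% in either direction). Every mdx_IL5Tg library was above every IL5Tg library for 6 and below for 0, beside 19.4% and 16.4% (35.9%). In mdx against IL5Tg, 5 were higher and 1 was lower, beside 22.2% and 19.7% (41.9%). Ccl8 and Ccl22 were among those higher, so this overlap count does not stand as support either. Each pair of comparisons shares a group, so their counts are not independent.

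By direction, 10.1% of all genes were called higher and 11.5% lower in mdx_IL5Tg against mdx, 4.35% and 2.87% in mdx_IL5Tg against IL5Tg, and 11.8% and 8.96% in mdx against IL5Tg. The median log2 fold change of the 9 tested members was -0.80, 1.01 and 2.05 in these comparisons, beside -0.13, -0.05 and 0.01 over all genes. Ccl8 and Ccl22, which passed the filter through mdx_IL5Tg and mdx libraries alone, are among the 9. The medians against IL5Tg therefore do not stand as support for a shift of the list. The split of all genes by direction depended on the scaling. With library totals in place of trimmed mean factors, 746 genes were higher and 4007 lower in mdx_IL5Tg against mdx (main values 1603 and 1830), 311 and 981 in mdx_IL5Tg against IL5Tg (main values 691 and 456), and 2408 and 998 in mdx against IL5Tg (main values 1874 and 1424).

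**Figure D2:**
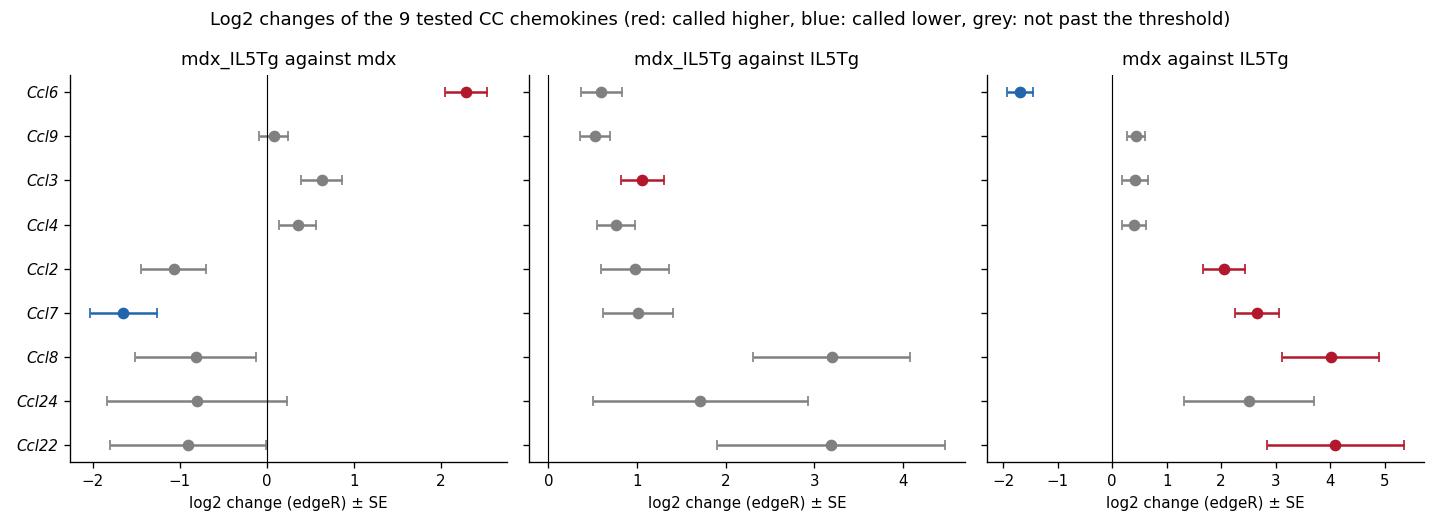
Log2 fold changes of the 9 tested members in mdx_IL5Tg against mdx, mdx_IL5Tg against IL5Tg and mdx against IL5Tg, as points with bars for the standard error, in red where called higher, in blue where called lower at an edgeR adjusted p under 0.05, and in grey otherwise. Ccl6 stands at 2.29, 0.59 and -1.69, and Ccl7 at -1.65, 1.01 and 2.66.

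Ccl6, a rodent chemokine made by myeloid cells that acts through Ccr1, was the most abundant of the 10 and was lowest in mdx eosinophils. It had 7327, 6628 and 7725 CPM in mdx_IL5Tg S1, S2 and S3, 1526, 934 and 1989 in mdx S4, S5 and S6, and 4801, 4433 and 5126 in IL5Tg S7, S8 and S9. The 3 groups did not overlap in any pairing, and the mdx_IL5Tg libraries held the highest values. Ccl6 was 4.87-fold higher in mdx_IL5Tg than in mdx (log2 2.29, SE 0.241, edgeR adjusted p = 1.7e-04). It was lower in mdx than in IL5Tg, with a log2 fold change of -1.69 (SE 0.236, edgeR adjusted p = 9.2e-04). Between the transgenic groups the log2 fold change was 0.59 (SE 0.231) and missed the threshold (edgeR adjusted p = 0.13). The first 2 differences stayed past the threshold in all 16 alternatives, at 1.94 to 2.65 and at -2.01 to -1.44, and without mdx S5 they were 2.04 and -1.44. For mdx_IL5Tg against IL5Tg, Ccl6 passed without mdx S5 (adjusted p = 0.025) and with those groups alone in the fit (0.038), in both cases higher. Its counts were not whole in all 9 libraries, since the authors' estimation shared some reads with other genes.

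Siglecf and the eosinophil markers are given beside Ccl6. Siglecf was also lower in mdx, at a log2 fold change of 1.73 for mdx_IL5Tg against mdx and -1.17 for mdx against IL5Tg (edgeR adjusted p = 7.2e-05 and 7.9e-04). The 13 eosinophil markers summed to 7249 to 7909 CPM in mdx_IL5Tg, 3369.6 to 4059 in mdx and 7393 to 17377 in IL5Tg. Prg2 averaged 618 CPM in mdx_IL5Tg, 226 in mdx and 3766 in IL5Tg, a large part of the IL5Tg sums. In mdx_IL5Tg against IL5Tg the granule genes Epx, Prg2, Prg3, Ear1, Ear2 and Ear6 had log2 fold changes of -3.13 to -2.21. Siglecf, Ccr3, Gata1, Alox15, Adgre1 and Cebpe had 0.38 to 0.79 there, and Il5ra -0.05. Of the 13 markers, 4 were higher and none lower in mdx_IL5Tg against mdx. In mdx_IL5Tg against IL5Tg, 0 were called with edgeR (12 at an unadjusted p under 0.05, in both directions). In mdx against IL5Tg, 7 were lower (Siglecf and the granule genes) and none higher. These counts moved with the settings: in mdx_IL5Tg against mdx to 7 with DESeq2 and 9 with voom or without mdx S6; in mdx_IL5Tg against IL5Tg to 8 with DESeq2, 6 with voom, 3 with no filter, 9 with only those groups in the fit and 6 without mdx S5 or S6; and in mdx against IL5Tg to 1 with only those groups in the fit, 4 without mdx_IL5Tg S2 or S3 and 2 without mdx S4. In sorted bulk samples such as these, fewer cells of a type and less RNA per cell cannot be told apart. The part of cell content in the Ccl6 difference was not tested.

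Ccl9, a close relative that also acts through Ccr1, had a different order of groups. It had 1397, 1289 and 1583 CPM in mdx_IL5Tg, 1480.4, 1093 and 1470.5 in mdx, and 857, 1009 and 1101 in IL5Tg. The mdx libraries lay within the range of mdx_IL5Tg apart from the lower mdx S5, and all 3 mdx_IL5Tg libraries were above IL5Tg. The log2 fold change in mdx_IL5Tg against mdx was 0.08 (SE 0.164, edgeR adjusted p = 0.77), and it turned to -0.25 with library totals and -0.049 without mdx S5. In mdx_IL5Tg against IL5Tg it was 0.52 (SE 0.165, edgeR adjusted p = 0.074), and for mdx against IL5Tg 0.45 (SE 0.165, edgeR adjusted p = 0.076). Both of these passed without mdx S5, at 0.53 and 0.58 (edgeR adjusted p = 0.029 and 0.025).

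The ratio of Ccl6 to Ccl9, a measure within a library that scaling cannot move, separated mdx from the transgenic groups. Counts were not whole for Ccl6 in all 9 libraries and for Ccl9 in 5 of 9. Reads shared with other genes therefore enter both terms of the ratio. Taken as CPM per kb of each gene, the ratio was 8.9, 8.72 and 8.28 in mdx_IL5Tg, 1.75, 1.45 and 2.29 in mdx, and 9.5, 7.45 and 7.9 in IL5Tg. The mdx values were all below those of both other groups, which overlapped. Its means were 8.63 ± 0.319, 1.83 ± 0.428 and 8.28 ± 1.08. An exact two-sided permutation test gave p = 0.1 for mdx_IL5Tg against mdx and p = 0.1 for mdx against IL5Tg, the smallest that 3 against 3 can give, and p = 0.6 for mdx_IL5Tg against IL5Tg. Ccl6 made up 85.7% to 86.8% of the summed CPM per kb of the 10 genes in mdx_IL5Tg, 52.3% to 62.8% in mdx and 86% to 87.3% in IL5Tg. The 10 genes together took 0.775% ± 0.0405 of all counts, before scaling, in mdx_IL5Tg, 0.328% ± 0.0997 in mdx and 0.600% ± 0.0443 in IL5Tg.

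**Figure D3:**
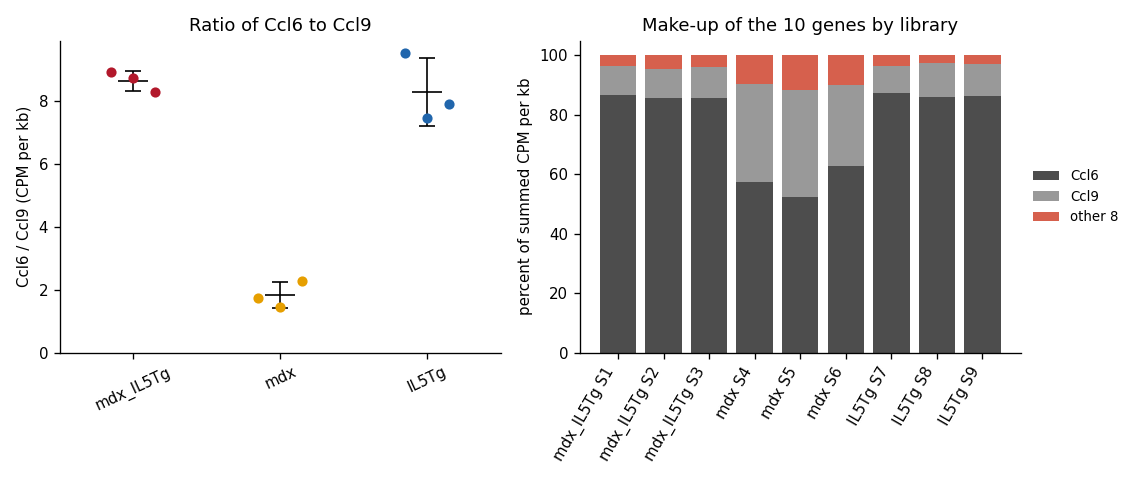
Left, the ratio of Ccl6 to Ccl9 in CPM per kb by library, with the mean ± SD over 3 libraries; right, the shares of Ccl6, Ccl9 and the other 8 genes in their summed CPM per kb in each of 9 libraries. The ratio lies at 1.45 to 2.29 in mdx and at 7.45 or above in all 6 transgenic libraries.

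Ccl3, a ligand of Ccr1 that recruits leukocytes in acute inflammation, was highest in mdx_IL5Tg. It had 93.8, 106 and 118 CPM in mdx_IL5Tg, 63.9, 46.5 and 94.7 in mdx, and 57.8, 39.3 and 55.2 in IL5Tg. All mdx_IL5Tg libraries were above IL5Tg, whereas mdx S6 reached the range of mdx_IL5Tg. Ccl3 was higher in mdx_IL5Tg than in IL5Tg, with a log2 fold change of 1.06 (SE 0.240, edgeR adjusted p = 0.032). This call was lost with library totals (0.84, adjusted p = 0.074), and without mdx_IL5Tg S1 or S2 or IL5Tg S7, S8 or S9 (0.96 to 1.21, adjusted p = 0.063 to 0.087), and passed without mdx S5 (1.07, adjusted p = 0.0092). Against mdx the log2 fold change in mdx_IL5Tg was 0.63 (SE 0.238, edgeR adjusted p = 0.082), which passed with DESeq2 (0.032) and without mdx S6 (0.0099) or IL5Tg S8 (0.042); without mdx S5 it was 0.42 (0.16). In mdx against IL5Tg it was 0.43 (SE 0.239, edgeR adjusted p = 0.22).

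Ccl4, a leukocyte attractant whose gene is the neighbour of Ccl3, had 19.4, 22.5 and 25.4 CPM in mdx_IL5Tg, 16.6, 18.6 and 17.5 in mdx, and 17.9, 9.70 and 12 in IL5Tg. The mdx_IL5Tg libraries lay above all others, and mdx and IL5Tg overlapped through IL5Tg S7. No comparison passed the threshold: the log2 fold change was 0.35 in mdx_IL5Tg against mdx (SE 0.218, edgeR adjusted p = 0.27), 0.76 for mdx_IL5Tg against IL5Tg (SE 0.219, edgeR adjusted p = 0.059) and 0.41 for mdx against IL5Tg (SE 0.219, edgeR adjusted p = 0.20). Without IL5Tg S7, Ccl4 passed in mdx_IL5Tg against IL5Tg at 1.09 (edgeR adjusted p = 0.032) and for mdx against IL5Tg at 0.64 (0.048), and without mdx S5 it passed in mdx_IL5Tg against IL5Tg at 0.77 (0.038). The comparison of mdx_IL5Tg with IL5Tg also passed with DESeq2 (0.01), voom (0.045) and no filter (0.019). The ratio of Ccl3 to Ccl4 in CPM per kb was 4.08 ± 0.0828 in mdx_IL5Tg, 3.38 ± 1.25 in mdx and 3.41 ± 0.591 in IL5Tg.

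Ccl2, Ccl7 and Ccl8 all had higher mean levels in mdx than in IL5Tg. Ccl2, the main ligand of Ccr2, had 4.88, 9.11 and 4.49 CPM in mdx_IL5Tg, 18.5, 6.43 and 13.8 in mdx, and 2.94, 3.44 and 2.98 in IL5Tg. Every mdx and mdx_IL5Tg library was above every IL5Tg library, and mdx_IL5Tg S2 was above mdx S5. Ccl2 was higher in mdx than in IL5Tg (log2 2.05, SE 0.391, edgeR adjusted p = 0.0050), and this held in all 16 alternatives, at 1.66 to 2.38, the highest of them without mdx S5. In mdx_IL5Tg the log2 fold change was -1.07 against mdx (SE 0.375, edgeR adjusted p = 0.063) and 0.98 against IL5Tg (SE 0.384, edgeR adjusted p = 0.13). The first of these passed in 5 of the 16 alternatives: with DESeq2, library totals or no filter, and without mdx_IL5Tg S2 (-1.36, adjusted p = 0.026) or mdx S5 (-1.39, adjusted p = 0.0099). The second passed without mdx S5 (0.99, adjusted p = 0.043).

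Ccl7, a ligand of Ccr2 that also binds Ccr1 and Ccr3, had 3.00, 4.58 and 2.22 CPM in mdx_IL5Tg, 10.5, 13.4 and 6.82 in mdx, and 2.02, 0.844 and 2.01 in IL5Tg. The groups did not overlap, and mdx_IL5Tg lay between the others. Ccl7 was lower in mdx_IL5Tg than in mdx (log2 -1.65, SE 0.386, edgeR adjusted p = 0.014), a call lost without mdx_IL5Tg S1 (-1.50, adjusted p = 0.075). It was 6.31-fold higher in mdx than in IL5Tg (log2 2.66, SE 0.409, edgeR adjusted p = 0.0016), and passed in all 16 alternatives at 2.31 to 2.85. Without mdx S5 these values were -1.40 and 2.42, both past the threshold. For mdx_IL5Tg against IL5Tg the log2 fold change was 1.01 (SE 0.398, edgeR adjusted p = 0.13). The ratio of Ccl7 to Ccl2 in CPM per kb was 0.764 ± 0.0961 in mdx_IL5Tg, 1.49 ± 1.28 in mdx, where mdx S5 stood at 2.97 and the others at 0.806 and 0.702, and 0.760 ± 0.357 in IL5Tg. Exact two-sided permutation tests of this ratio gave p = 0.7, 1 and 0.6 in mdx_IL5Tg against mdx, mdx_IL5Tg against IL5Tg and mdx against IL5Tg.

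Ccl8, which in mice signals through Ccr8, was rare, with 59, 62 and 4 counts in mdx_IL5Tg, 92, 54 and 53 in mdx, and 2, 6 and 1 in IL5Tg. In CPM these were 1.17, 1.56 and 0.104 in mdx_IL5Tg, 1.93, 1.81 and 1.28 in mdx, and 0.0640, 0.195 and 0.0373 in IL5Tg. Library mdx_IL5Tg S3 lay within the IL5Tg range and the other mdx_IL5Tg libraries near those of mdx. Ccl8 passed the filter on low counts through mdx_IL5Tg and mdx libraries alone, the groups where it is higher. Its calls against IL5Tg below therefore do not stand as support. Ccl8 was higher in mdx than in IL5Tg (log2 4.01, SE 0.886, edgeR adjusted p = 0.010), and the call held in all 16 alternatives at 3.61 to 4.89, the highest without IL5Tg S8 and 3.96 without mdx S5. The ratio of pooled normalised counts was 16.5 (95% exact interval 8.52 to 36.6, for counting error only). In mdx_IL5Tg against IL5Tg the log2 fold change was 3.20 (SE 0.887, edgeR adjusted p = 0.053), and it passed without mdx_IL5Tg S3 (3.77, adjusted p = 0.0041) or mdx S5 (3.21, adjusted p = 0.045) and with DESeq2 or no filter. In mdx_IL5Tg against mdx it was -0.82 (SE 0.696, edgeR adjusted p = 0.43).

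Markers of other cell types are given beside Ccl2, Ccl7 and Ccl8. The 15 macrophage markers summed to 459, 495 and 354 CPM in mdx_IL5Tg, 1246, 1011 and 714 in mdx, and 219, 249 and 229 in IL5Tg. Of them, 13 were lower in mdx_IL5Tg than in mdx, 8 were higher in mdx_IL5Tg than in IL5Tg, and 13 were higher in mdx than in IL5Tg, with no call in the other direction. Against mdx the count fell to 8 without mdx_IL5Tg S1 and 6 without mdx S4. That of mdx_IL5Tg against IL5Tg fell to 3 with voom, 1 and 3 without mdx_IL5Tg S1 and S2, and 2, 3 and 4 without IL5Tg S7, S8 and S9. The complement gene C1qa, a macrophage marker, was at 5.21, 8.48 and 1.31 CPM in mdx_IL5Tg, 27.5, 26.8 and 14.1 in mdx, and 1.12, 0.454 and 0.895 in IL5Tg. Csf1r alone averaged 329 CPM in mdx_IL5Tg, 395 in mdx and 206 in IL5Tg, a large part of the macrophage sums. The 9 fibroblast and endothelial markers summed to 921 to 3295 CPM in mdx_IL5Tg, 4767 to 10989 in mdx and 1212 to 2511 in IL5Tg, with 6 lower in mdx_IL5Tg than in mdx, 6 higher in mdx than in IL5Tg and 0 called between the transgenic groups by edgeR, DESeq2 or voom (1 at an unadjusted edgeR p under 0.05). The first count fell to 1 without mdx_IL5Tg S1 and to 2 without mdx_IL5Tg S3, without mdx S4 or with no filter, and the second to 3 without mdx S4, without IL5Tg S7 or with no filter. The 9 monocyte markers summed to 866 to 975 CPM in mdx_IL5Tg, 868 to 1173 in mdx and 531 to 765 in IL5Tg, with 1 higher and 6 lower in mdx_IL5Tg against mdx, 2 higher and 1 lower in mdx_IL5Tg against IL5Tg, and 6 higher and 1 lower in mdx against IL5Tg. The marker higher against mdx was Plac8. It averaged 726 CPM in mdx_IL5Tg, 335 in mdx and 389 in IL5Tg, a large part of the monocyte sums. The 9 muscle fibre markers summed to 12.9 to 16.4 CPM in mdx_IL5Tg, 26.7 to 57.7 in mdx and 3.87 to 4.84 in IL5Tg. Of the 7 of them that were tested, 7 were lower in mdx_IL5Tg than in mdx, 5 higher in mdx_IL5Tg than in IL5Tg, and 7 higher in mdx than in IL5Tg. No marker of these 4 lists was at 0 in all libraries of a group. Their part in the differences of Ccl2, Ccl7 and Ccl8 was not tested.

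**Figure D4:**
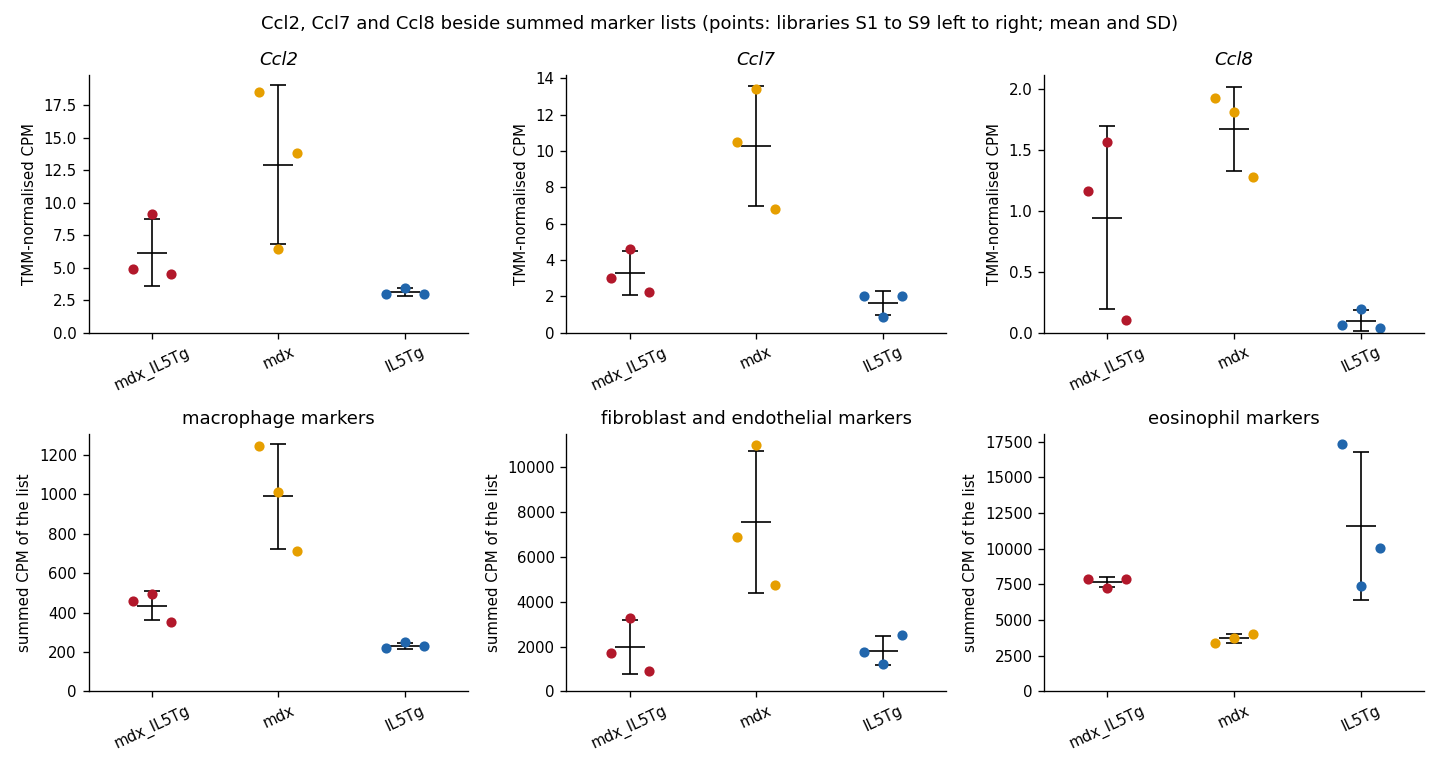
CPM of Ccl2, Ccl7 and Ccl8 (top) and summed CPM of the macrophage, the fibroblast and endothelial and the eosinophil markers (bottom) by library in mdx_IL5Tg, mdx and IL5Tg, with points for libraries and bars for the mean ± SD over 3 libraries. The macrophage sum lies at 354 to 495 CPM in mdx_IL5Tg, 714 to 1246 in mdx and 219 to 249 in IL5Tg.

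The Ccr4 ligands, which attract T helper cells of the allergic type, were rare in all groups. Ccl17 had 16, 9 and 11 counts in mdx_IL5Tg, 1, 0 and 1 in mdx, and 3, 7 and 9 in IL5Tg. Its mdx counts were below those of every transgenic library, and mdx_IL5Tg and IL5Tg overlapped in CPM. In CPM it averaged 0.277 ± 0.0456 in mdx_IL5Tg, 0.0150 ± 0.0131 in mdx and 0.220 ± 0.120 in IL5Tg. An exact two-sided permutation test gave p = 0.1 for mdx_IL5Tg against mdx and p = 0.1 for mdx against IL5Tg, and p = 0.7 for mdx_IL5Tg against IL5Tg. The ratio of pooled normalised counts was 16.7 (95% exact interval 4.29 to 143) in mdx_IL5Tg against mdx and 0.0786 (0.00887 to 0.326) in mdx against IL5Tg, with counting error alone in the intervals.

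Ccl22, the other Ccr4 ligand, had 25, 6 and 1 counts in mdx_IL5Tg, 11, 22 and 15 in mdx, and 2, 0 and 0 in IL5Tg. The mdx libraries were above all IL5Tg libraries, and the mdx_IL5Tg libraries overlapped both groups. Ccl22 passed the filter on low counts through mdx_IL5Tg and mdx libraries alone, the groups where it is higher. Its call against IL5Tg therefore does not stand as support. Ccl22 was higher in mdx than in IL5Tg (log2 4.10, SE 1.26, edgeR adjusted p = 0.042), with a ratio of pooled normalised counts of 17.9 (95% exact interval 4.7 to 152, for counting error only). That call was lost without mdx_IL5Tg S2, any mdx library or any IL5Tg library (log2 3.54 to 7.03, adjusted p = 0.052 to 0.13), the value 7.03 coming without IL5Tg S7 and 3.55 without mdx S5. Ccl22 passed in 7 of the 14 alternatives that tested it. It was not tested with at least 50 counts in 3 libraries or with only the groups compared. The log2 fold change was -0.91 in mdx_IL5Tg against mdx (SE 0.898, edgeR adjusted p = 0.50) and 3.19 for mdx_IL5Tg against IL5Tg (SE 1.29, edgeR adjusted p = 0.14).

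Ccl24, a Ccr3 ligand of the eotaxin group that attracts eosinophils, had 16, 37 and 2 counts in mdx_IL5Tg, 46, 20 and 26 in mdx, and 0, 0 and 11 in IL5Tg. In CPM, mdx held 0.627 to 0.963, above the IL5Tg libraries at 0 to 0.410, and mdx_IL5Tg ranged from 0.0522 to 0.932. No comparison passed the threshold: log2 -0.80 in mdx_IL5Tg against mdx (SE 1.03, edgeR adjusted p = 0.61), 1.71 for mdx_IL5Tg against IL5Tg (SE 1.21, edgeR adjusted p = 0.38) and 2.51 for mdx against IL5Tg (SE 1.19, edgeR adjusted p = 0.15). The last passed without IL5Tg S9 (log2 7.83, adjusted p = 0.032), the IL5Tg library that held the 11 counts. At these depths even the log2 fold change of 2.51 did not pass, so differences of Ccl24 of that size or smaller may go undetected.

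In mdx_IL5Tg S3, Ccl2, Ccl7, Ccl8, Ccl22 and Ccl24 were all at the lowest value of their group, and so were the sums of several marker lists. Ccl3, Ccl4, Ccl6 and Ccl9 were at the highest value of the group in that library. The dendritic cell markers, 11 genes of which 9 were tested, summed to 354, 383 and 222 CPM in mdx_IL5Tg, 385, 364 and 295 in mdx, and 68.6, 67.5 and 63.1 in IL5Tg. Of these, 1 was higher and 2 lower in mdx_IL5Tg against mdx, 5 were higher in mdx_IL5Tg against IL5Tg, and 5 were higher in mdx against IL5Tg. Against mdx the number called was 6 with voom, 5 with library totals and 1 without mdx_IL5Tg S1, and in mdx_IL5Tg against IL5Tg it fell to 2 with no filter or without mdx_IL5Tg S1, S2 or IL5Tg S9, and to 3 without IL5Tg S8. The sorting gate excluded CD11c+ and MHC class II+ cells, and so dendritic cells by surface label. Transcripts of these antigens were still present. Itgax, the CD11c gene, averaged 231 CPM in mdx_IL5Tg, 120 in mdx and 47.0 in IL5Tg, a large part of the dendritic sums. It was the marker called higher in mdx_IL5Tg than in mdx. The MHC class II genes H2-Aa, H2-Ab1 and H2-Eb1 were called higher in both mdx and mdx_IL5Tg than in IL5Tg. The macrophage sum of mdx_IL5Tg S3 was 354 CPM and its fibroblast and endothelial sum was 921, also the lowest of the group. Whether these contents bear on Ccl2, Ccl7, Ccl8, Ccl22 and Ccl24 was not tested.

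Neutrophil markers, of which 11 of 12 were in the table, summed to 311 to 433 CPM in mdx_IL5Tg, 232 to 573 in mdx and 536 to 1427 in IL5Tg, and Ly6g was at 0.261 to 0.790, 0 to 0.338 and 0.522 to 2.08 CPM. T and NK cell markers, 10 genes, summed to 2.09 to 2.51, 1.77 to 3.22 and 3.83 to 8.99 CPM, with Cd3e at 0 to 0.0522, 0 to 0.230 and 0 to 0.224. Ncr1, a receptor gene of NK cells, was at 0 in all mdx_IL5Tg and IL5Tg libraries. For the neutrophil list, 1 gene was higher and 1 lower, 2 were higher, and 1 was higher and 2 lower in mdx_IL5Tg against mdx, mdx_IL5Tg against IL5Tg and mdx against IL5Tg. The T and NK cell list had 1 higher, 0 called (2 at an unadjusted edgeR p under 0.05), and 1 higher and 2 lower in the same comparisons. The sort removed Gr1-positive cells, among which neutrophils count.

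The patterns of the members over the 9 libraries were compared by the root-mean-square (RMS) difference of log2 CPM, each gene centred on its own mean. Ccl3 and Ccl4, 13.2 kb apart, were the closest pair at 0.325, followed by Ccl4 and Ccl9 at 0.354 and Ccl3 and Ccl9 at 0.372. The neighbours Ccl6 and Ccl9 differed by 1.07, the neighbours Ccl2 and Ccl7 by 0.745, and Ccl6 and Ccl8 were the farthest apart at 2.48. All of these pairs share the same libraries and scaling, so the values are a description.

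Among the 7546 tested genes at or above the median level, the 3 closest to each member were found in the same way, and 2 of those 3 are given for Ccl3. For Ccl6 they were Cst7 (0.109), Dck (0.205) and Fam169b (0.224), and for Ccl9 they were Fbxo11 (0.0718), R3hdm2 (0.106) and Sf3b4 (0.121). Those given for Ccl3 are Cxcr4 (0.239) and Herc3 (0.255), and Ccl4 was closest to Pfdn6 (0.189), Chd1l (0.2) and Nsmce1 (0.216). Other neighbours were found for Ccl2, Ccl7 and Ccl8: Il33 (0.288), Bcl6b (0.319) and Pxdn (0.334) for Ccl2, Des (0.285), Plau (0.299) and Lamb1 (0.301) for Ccl7, and Cd74 (0.666), Angptl4 (0.676) and Mrc1 (0.711) for Ccl8. The low-count genes had larger differences, with Inhbb (0.552), Il1b (0.631) and Ltb (0.664) for Ccl22 and Has1 (0.719), Col14a1 (0.759) and Mrc2 (0.783) for Ccl24. The measure grows with a gene's own spread, so it does not rank closeness between members. The SD of log2 CPM was 1.45 for Ccl22 and 1.74 for Ccl24, beside 0.426 for Ccl4 and 0.299 for Ccl9. Cd74 and Mrc1 belong to the dendritic cell and macrophage lists above.

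Of 14 other CC chemokine genes looked for, 13 were in the table and 5 passed the filter (Ccl5, Ccl11, Ccl21a, Ccl25 and Ccl27a). Ccl5, a chemokine made by T cells and other leukocytes, was the only one called in the main fit. It had 0.217, 0.252 and 0.104 CPM in mdx_IL5Tg, 1.40, 0.435 and 0.916 in mdx, and 0.224, 0.260 and 0.0373 in IL5Tg. All mdx libraries were above all others. Ccl5 passed the filter on low counts through the mdx libraries alone, the group where it is high, so its calls do not stand as support, and at least 50 counts in 3 libraries removed it from the test. Ccl5 was lower in mdx_IL5Tg than in mdx (log2 -2.25, SE 0.659, edgeR adjusted p = 0.034) and higher in mdx than in IL5Tg (log2 2.37, SE 0.686, edgeR adjusted p = 0.033). The first call was lost without any of mdx_IL5Tg S1, S2 or S3, mdx S4 or S6, or IL5Tg S7 (adjusted p = 0.053 to 0.16), and the second without any of mdx_IL5Tg S1, mdx S4 or S6, or IL5Tg S7, S8 or S9 (0.053 to 0.12). Without mdx S5 both passed, at -2.57 and 2.70. The number of these other CC chemokines called was then 2 in each of these comparisons. The eotaxin gene Ccl11 averaged 4.13 ± 1.69 CPM in mdx_IL5Tg, 5.99 ± 2.66 in mdx and 6.92 ± 1.77 in IL5Tg, with no call. Ccl1, Ccl20, Ccl26 and Ccl27b were at 0 counts in all 9 libraries.

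The receptors of these ligands were measured in the same cells. Of 14 CC chemokine receptor genes looked at, 8 passed the filter. In mdx_IL5Tg against mdx, 2 were higher (Ccr1 and Ccrl2) and 2 lower (Ccr2 and Ackr4). In mdx_IL5Tg against IL5Tg, Ccrl2 was higher and Ackr4 lower, and in mdx against IL5Tg, Ccr2 was higher and Ackr1 lower. The number of receptors called moved with the settings. For mdx_IL5Tg against IL5Tg it was 4 with DESeq2 and 5 without mdx S5. It was 0 there without mdx_IL5Tg S1 or S2 or IL5Tg S9, and 1 without mdx S4 or S6 or IL5Tg S7 or S8. Against mdx it fell to 2 with library totals and 1 without mdx_IL5Tg S1. For mdx against IL5Tg it fell to 1 with voom or no filter, or without mdx S4 or S5 or IL5Tg S7 or S8.

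Ccr1, the receptor of Ccl3, Ccl6 and Ccl9, had 509, 506 and 553 CPM in mdx_IL5Tg, 321, 173 and 329.6 in mdx, and 389.6, 393 and 401 in IL5Tg. The groups did not overlap, as with Ccl6, with mdx lowest and mdx_IL5Tg highest. Ccr1 was higher in mdx_IL5Tg than in mdx (log2 0.93, SE 0.209, edgeR adjusted p = 0.012), a call lost with library totals (0.59, adjusted p = 0.079) and past the threshold without mdx S5 (0.69, adjusted p = 0.0030). Ccr3, the eotaxin receptor that marks eosinophils, had 1366, 1441 and 1310.3 CPM in mdx_IL5Tg, 1109, 809 and 1134 in mdx, and 827, 1011 and 1064 in IL5Tg. Its mdx_IL5Tg libraries were above all others. No comparison passed the threshold in the main fit (edgeR adjusted p = 0.081, 0.080 and 0.78 in mdx_IL5Tg against mdx, mdx_IL5Tg against IL5Tg and mdx against IL5Tg).

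Ccr2, the receptor of Ccl2 and Ccl7 on monocytes, was low. It had 3.52, 2.59 and 2.06 CPM in mdx_IL5Tg, 19.7, 3.78 and 8.97 in mdx, and 2.82, 2.24 and 3.88 in IL5Tg. It was lower in mdx_IL5Tg than in mdx (log2 -1.99, SE 0.499, edgeR adjusted p = 0.018) and higher in mdx than in IL5Tg (log2 1.87, SE 0.501, edgeR adjusted p = 0.024). Library mdx S4 held the highest value and mdx S5 overlapped the IL5Tg range; without mdx S4 both calls were lost (-1.14 and 1.07, adjusted p = 0.091 and 0.10). The first was also lost without mdx_IL5Tg S1 or S3 (adjusted p = 0.05 and 0.059), and the second with voom (0.059) or with no filter (0.061), as well as without IL5Tg S7, S8 or S9 (0.05 to 0.088). Without mdx S5 both passed, at -2.39 and 2.27. Its estimated counts were in part not whole, so reads shared with other genes leave its values uncertain. The summed macrophage markers given above were also highest in mdx, and their part in the Ccr2 differences was not tested.

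Ccrl2, an atypical receptor that binds chemerin and does not signal for migration, had 197, 163 and 135 CPM in mdx_IL5Tg, 88.2, 67.8 and 89.1 in mdx, and 104, 45.8 and 76.5 in IL5Tg. All mdx_IL5Tg libraries were above all others. It was higher in mdx_IL5Tg than in mdx (log2 1.02, SE 0.261, edgeR adjusted p = 0.020) and than in IL5Tg (log2 1.13, SE 0.261, edgeR adjusted p = 0.034). With library totals both calls were lost (0.69 and 0.90, adjusted p = 0.094 and 0.075), as they were without mdx_IL5Tg S1 (adjusted p = 0.057 and 0.13). The call against mdx was lost as well without mdx S5 (0.056), and that against IL5Tg without mdx_IL5Tg S2 (0.067) or IL5Tg S9 (0.07). Ackr1, a scavenger of chemokines on vessels and red cells, had 24.0, 27.8 and 12.3 CPM in mdx_IL5Tg, 19.6, 13.7 and 25.6 in mdx, and 49.6, 38.3 and 46.9 in IL5Tg. It was lower in mdx than in IL5Tg (log2 -1.19, SE 0.297, edgeR adjusted p = 0.018), which was lost without mdx S5 (-0.99, adjusted p = 0.055). An exon of Ackr1 overlaps one of Cadm3, so its reads are uncertain.

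Ackr4 had 0, 0 and 1 counts in mdx_IL5Tg, 9, 15 and 11 in mdx, and 8, 4 and 7 in IL5Tg. The ratio of pooled normalised counts was 0.0265 (95% exact interval 0.000651 to 0.157) in mdx_IL5Tg against mdx and 0.0364 (0.000875 to 0.229) in mdx_IL5Tg against IL5Tg, for counting error only. Ackr4 passed the filter on low counts through mdx and IL5Tg libraries alone, where it is high, so its calls do not stand as support. The edgeR adjusted p was 0.0083 and 0.038 for these comparisons, and the calls were lost without mdx_IL5Tg S1 for the first (0.053) and without any of 7 libraries for the second (0.051 to 0.18). Its exons overlap Acad11 on the opposite strand and the sources used here do not give the strand setting, so its reads cannot be told apart from those of Acad11. The receptor genes Ccr4, of Ccl17 and Ccl22, and Ccr8, of Ccl8, held 0 to 3 and 0 to 9 counts per library and were not tested. Ccr4 averaged 0.0174, 0.0311 and 0.0341 CPM and Ccr8 0.0779, 0.107 and 0.0462 CPM in mdx_IL5Tg, mdx and IL5Tg.

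**Figure D5:**
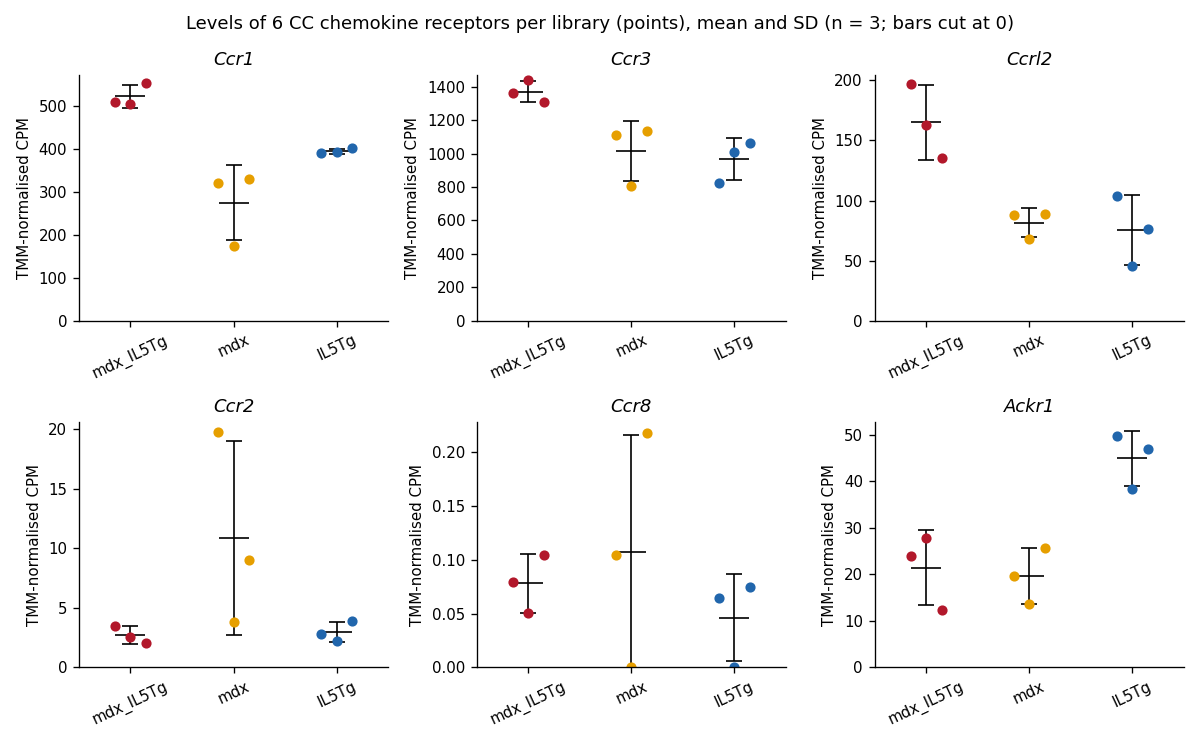
CPM of Ccr1, Ccr3, Ccrl2, Ccr2, Ccr8 and Ackr1 by library in mdx_IL5Tg, mdx and IL5Tg, with points for libraries and bars for the mean ± SD over 3 libraries. Ccr1 is lowest in mdx, at 173 to 329.6 CPM, and Ccr2 ranges there from 3.78 to 19.7 CPM.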

How the data were processed

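RNA of eosinophils sorted from quadriceps infiltrates was sequenced in 9 libraries. In the deposited table the values are expected counts, which the authors obtained from RSEM without normalisation. Per the submitters' processing notes, the tools were RSEM 1.3.0, STAR 2.5.3, cutadapt 2.10 and limma on the build mm10; the sources used here do not give settings, annotation or strandedness. RSEM divides reads that match several genes, so 6.03% of values were not whole, and all were rounded. Of the gene identifiers, 54079 were found in GENCODE M21. Columns give a group and an S number but no replicate number.

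Genes were kept by filterByExpr (minimum count 10), scaled with TMM factors and tested with edgeR 4.0.16 (robust quasi-likelihood) in R 4.3.3. A single fit held all 9 libraries, with Benjamini-Hochberg adjustment over 15886 genes, threshold 0.05. Standard errors were recovered from the F statistic. Levels are TMM-normalised CPM, and CPM per kb uses the length of the joined exons. Total counts ranged from 26752780 to 58368283, and PCR reads without molecular identifiers are not independent molecules, so count intervals cover counting error only. Every pair of replicates differed by more than sampling noise. The methods were tested on simulated data.

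All 10 genes were named. Of the other CC chemokines and the receptors, up to 4 per list and comparison with the smallest p among those past the threshold were named, and receptors of the 10 genes also without a call. Some items are not reported here, and the receptor list was counted without them. Likeness used a prior count of 2 and left out predicted and clone-named genes. The members and lists were chosen with earlier results of these data known. Alternatives were DESeq2 1.42.0, voom of limma 3.58.1, RLE factors, library totals, no filter, at least 50 counts in 3 libraries, only the groups compared, and each library left out.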

Additional observations from a re-analysis of the deposited data

How the results depend on the processing

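No paired analysis was possible because the columns carry no replicate numbers, so the fit with a replicate block was not run. Over the 9 tested genes, 3 comparisons and all alternatives, 379 of 423 values kept their direction and side of the threshold, 14 calls were lost, 28 were gained and 2 changed direction. Both of the last were Ccl9 in mdx_IL5Tg against mdx, at -0.25 with library totals and -0.049 without mdx S5, with a range of -0.049 to 0.24 over the libraries left out (0.24 without mdx S6). The number of the 10 genes called in mdx_IL5Tg against mdx, 2 in the report, was 4 with DESeq2, 4 with no filter and 1 to 4 with a library left out (1 without mdx_IL5Tg S1, 4 without mdx S5 or IL5Tg S8). In mdx_IL5Tg against IL5Tg, 1 in the report, it was 4 with DESeq2, 2 with voom, 0 with library totals, 5 with no filter, 2 with only the groups compared and 0 to 6 with a library left out (0 without mdx_IL5Tg S1 or S2 or IL5Tg S8 or S9, 2 without mdx_IL5Tg S3, 6 without mdx S5). In mdx against IL5Tg, 5 in the report, it was 4 to 6. Counts over all genes with a library left out were 1521 to 4057 in mdx_IL5Tg against mdx (1521 without mdx_IL5Tg S1, 1882 without mdx S4), 110 to 2641 in mdx_IL5Tg against IL5Tg (110 without mdx_IL5Tg S1, 254 without S2, 1841 without S3, 2641 without mdx S5, 256, 469 and 357 without IL5Tg S7, S8 and S9) and 1961 to 3837 in mdx against IL5Tg (2131 without IL5Tg S8, 1961 without S9). In mdx_IL5Tg against IL5Tg DESeq2 called 2464 and the fit of only the groups compared 1816. The causes were not tested. Library totals moved the median of all genes to -0.46, -0.27 and 0.12 on the log2 scale in the 3 comparisons. Ccl8, Ccl17, Ccl22 and Ccl24 rest on few counts, and each group on 3 libraries.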
